A study of Mus musculus and Homo sapiens with 24 samples.

Results

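The interaction of estradiol and cobalt chloride (CoCl2) was measured in HepG2 cells, a human hepatoma line with many traits of hepatocytes. The genes covered were all those of the HepG2 count table that exceeded 5 counts in 1 library or more, 16681 of the 28278 listed, measured in 12 of the 24 samples of the series. The other samples are mouse livers. Control (Ctrl) cells, cells with 50 µM CoCl2 (CoCl2), cells with 25 nM β-estradiol (Estrogen) and cells with both (CoCl2-Estrogen) were harvested after 4 hours, with 3 replicates in each of the 4 groups. Cells of all groups were grown in medium with 10% fetal bovine serum and washed before treatment. The study's general methods for HepG2 cells add a night without serum, and they do not say whether this holds for the sequenced cells. The labels do not say whether replicates came from separate cultures, so p-values measure the spread between these samples.

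CoCl2 is widely used as a chemical mimic of hypoxia. It inhibits the prolyl hydroxylases (EGLN proteins) that mark the HIF1α subunit for degradation, so HIF1α protein accumulates and, with its partner ARNT, switches on genes of glycolysis, iron handling, angiogenesis and survival. Estradiol acts through nuclear estrogen receptors, ESR1 and ESR2, and through the membrane receptor GPER1. Estrogens are known to alter the output of clotting factors by the liver. PROS1 encodes protein S, the cofactor of activated protein C that limits clotting and the gene at the centre of the study.

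The interaction is the CoCl2 effect in estradiol-treated cells minus the CoCl2 effect in cells without estradiol, on a log2 scale. It equals the estradiol effect with CoCl2 minus that without. A value of 0 means that the level in cells with both agents equals the product of the single effects. That predicted level is the mean in Estrogen cells multiplied by the mean in CoCl2 cells and divided by the mean in Ctrl cells. Levels are library-size-scaled counts (CPM), further scaled by the trimmed mean of M values, and they compare libraries, not genes, since they are not per length. A gene was called at an adjusted p of at most 0.05 in edgeR's quasi-likelihood test across all 16681 genes.

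Libraries held 13592637 to 21701480 counts. All 10 hepatocyte markers were present in every library. Their summed level was 27950 to 31335 CPM in the 6 libraries without estradiol and 15079 to 17526 CPM in the 6 with it. Of 18 markers of other cell types, PTPRC, CD3E, KDR, COL3A1 and LRAT had no count in any library, and the list summed to 1691 to 2056 CPM, mostly from LYZ and SOX9. CoCl2 replicate B stood apart. The globin gene HBB, 1 of those 18 markers, reached its highest level there, at 777 counts (57.0 CPM). The library gave 2.60% of its counts to the ribosomal RNA gene RNA28SN2, against at most 0.866% in any other library. Its counts differed from those of its 2 group mates with a chi-square per degree of freedom of 57.4 and 40.2, whereas the other replicate pairs lay between 5.82 and 15.1. Without that library 1044 genes were called for the interaction, 340 positive and 704 negative, among them 857 of the 967.

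The interaction was called for 967 genes, 5.80% of those tested. The term was negative for 617 genes (3.70% of tested) and positive for 350 genes (2.10%), while the median over all tested genes was 0.012. Before adjustment, 3072 genes had a p under 0.05. Among the 617 genes with a negative term, the median CoCl2 effect was 0.19 without estradiol and -0.44 with it, and the median estradiol effect was 1.24 without CoCl2 and 0.60 with it. Their median level in CoCl2-Estrogen cells was 64.2% of the product of the single effects. Among the 350 genes with a positive term, the corresponding CoCl2 medians were -0.12 and 0.43, the estradiol medians were -0.80 and -0.22, and the level with both agents was 147% of the product. These single effects are parts of the same term and use the same libraries, so they describe its shape and carry no separate test. The size of the term was moderate for most genes. Its median absolute value over the called genes was 0.60, and it was above 1 or below -1 for 162 genes, 126 of them negative. The number of positive calls fell to 221 without Ctrl replicate A and to 233 without CoCl2-Estrogen replicate A. With library totals alone in place of the scaling factors, the calls were 520 positive and 488 negative, so that the excess of negative calls was not present under that scaling, which moved the median of all genes to 0.067.

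CoCl2 by itself was called for 359 genes (2.15% of tested) in cells without estradiol, 305 higher and 54 lower. In cells with estradiol it was called for 1988 genes (11.9%), 898 higher and 1090 lower. Estradiol was called for 11078 genes (66.4%) without CoCl2 and for 10305 (61.8%) with it. The commonest shape of a called negative interaction, in 406 of the 617 genes, was a CoCl2 effect that did not pass the test without estradiol and was lower with it. A further 94 rose with CoCl2 alone and did not pass the test with estradiol, 46 were called in opposite directions, 20 in the same direction in both states, and 51 in neither. For the 350 positive interactions, 272 did not pass without estradiol and rose with it, 12 fell without estradiol and did not pass with it, 12 were called in the same direction in both, 5 in opposite directions and 49 in neither. These counts describe shape only, since an effect that passes in 1 state and misses in the other need not differ between them.

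**Figure D1:**
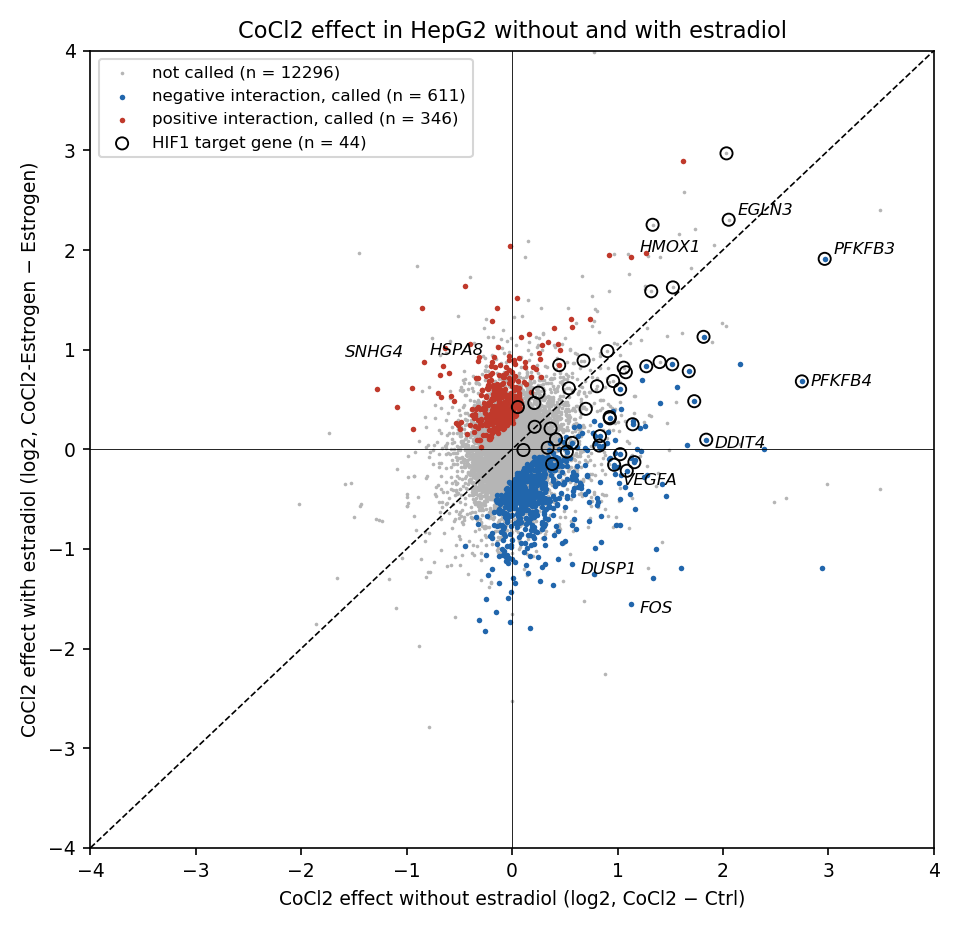
Each point is a gene whose mean over the 12 libraries reached 1 CPM. The x axis gives the CoCl2 effect (log2) without estradiol and the y axis that with estradiol. On the dashed line the interaction is 0, blue and red mark called negative and positive terms, and open circles mark HIF1 target genes. 13253 of 13264 genes lie within the axes. The circles lie to the right of 0, and most of the called ones lie below the dashed line.

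HIF1 target genes are the transcripts that CoCl2 is used to raise. Of 48 tested, CoCl2 was called to raise 38 in cells without estradiol and 26 in cells with it. Over all 16681 tested genes it was called to raise 305 and 898. The interaction was called for 21 of them, 20 negative and 1 positive, against 5.80% of all genes. The median interaction of the list was -0.47 beside 0.012 for all tested genes, and the median CoCl2 effect was 0.99 without and 0.44 with estradiol.

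PFKFB4 encodes an enzyme that makes fructose-2,6-bisphosphate, an activator of glycolysis. Its level was 12.5, 10.6 and 13.1 CPM in the Ctrl libraries, 85.5, 70.5 and 87.1 in the CoCl2 libraries, 8.30, 6.98 and 7.46 in the Estrogen libraries and 11.2, 13.2 and 12.2 in the CoCl2-Estrogen libraries. The CoCl2 libraries lay far above the other 9, the CoCl2-Estrogen libraries overlapped those of Ctrl and the Estrogen libraries lay below both. The product of the single effects was 50.8 CPM, and the measured level was 12.2 ± 1.00 (SD, n = 3) CPM. The interaction was -2.07 (SE 0.169, adjusted p = 1.00e-06). The sister gene PFKFB3 kept more of its response. It measured 14.6, 13.3 and 13.5 CPM in the Ctrl libraries, 118, 91.7 and 113 in the CoCl2 libraries, 10.3, 10.4 and 11.96 in the Estrogen libraries and 38.4, 42.8 and 41.5 in the CoCl2-Estrogen libraries, with an interaction of -1.05 (SE 0.147, adjusted p = 2.33e-04). CoCl2 raised PFKFB3 by 2.97 (SE 0.104) log2 without estradiol and by 1.91 (SE 0.108) with it.

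DDIT4 encodes an inhibitor of mTORC1 signalling that low oxygen and several stresses induce. It measured 53.7, 45.02 and 50.4 CPM in the Ctrl libraries, 199, 154 and 181 in the CoCl2 libraries, 79.5, 82.2 and 67.9 in the Estrogen libraries and 82.1, 84.9 and 78.6 in the CoCl2-Estrogen libraries. CoCl2 raised it in control cells, and the Estrogen and CoCl2-Estrogen libraries overlapped. Its interaction was -1.75 (SE 0.130, adjusted p = 4.35e-07), and the level with both agents was 29.9% of the predicted 274 CPM. STC2, a secreted glycoprotein gene that belongs to the HIF1, ATF4 and estrogen target lists, measured 83.9, 77.9 and 77.9 CPM in the Ctrl libraries, 178, 166 and 165 in the CoCl2 libraries, 322, 330.0 and 309 in the Estrogen libraries and 273, 281 and 274 in the CoCl2-Estrogen libraries. Both agents raised STC2 when given alone, and with both its level was below that with estradiol alone. The interaction of STC2 was -1.30 (SE 0.0835, adjusted p = 7.59e-08).

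VEGFA, the main angiogenic growth factor of hypoxic tissue, showed the same arrangement of groups as STC2. Its level was 73.2, 67.4 and 68.5 CPM in the Ctrl libraries, 128, 134 and 147 in the CoCl2 libraries, 445, 465 and 439.9 in the Estrogen libraries and 400.2, 419.6 and 392.1 in the CoCl2-Estrogen libraries. Each agent alone raised VEGFA, the estradiol libraries were highest, and the CoCl2-Estrogen libraries lay below the Estrogen libraries with no overlap. The CoCl2 effect on VEGFA was 0.97 (SE 0.0671) without estradiol and -0.16 (SE 0.0648) with it, and the latter did not pass the test (adjusted p = 0.141). The interaction was -1.12 (SE 0.0932, adjusted p = 1.02e-06). RORA, a nuclear receptor gene, averaged 18.7 CPM in Ctrl, 41.9 in CoCl2, 110.5 in Estrogen and 101 in CoCl2-Estrogen cells, with an interaction of -1.29 (SE 0.108, adjusted p = 1.02e-06). HK2, the hexokinase of many tumours, averaged 185 CPM in Ctrl, 409 in CoCl2, 289 in Estrogen and 344 in CoCl2-Estrogen cells, with an interaction of -0.89 (SE 0.102, adjusted p = 2.71e-05).

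**Figure D2:**
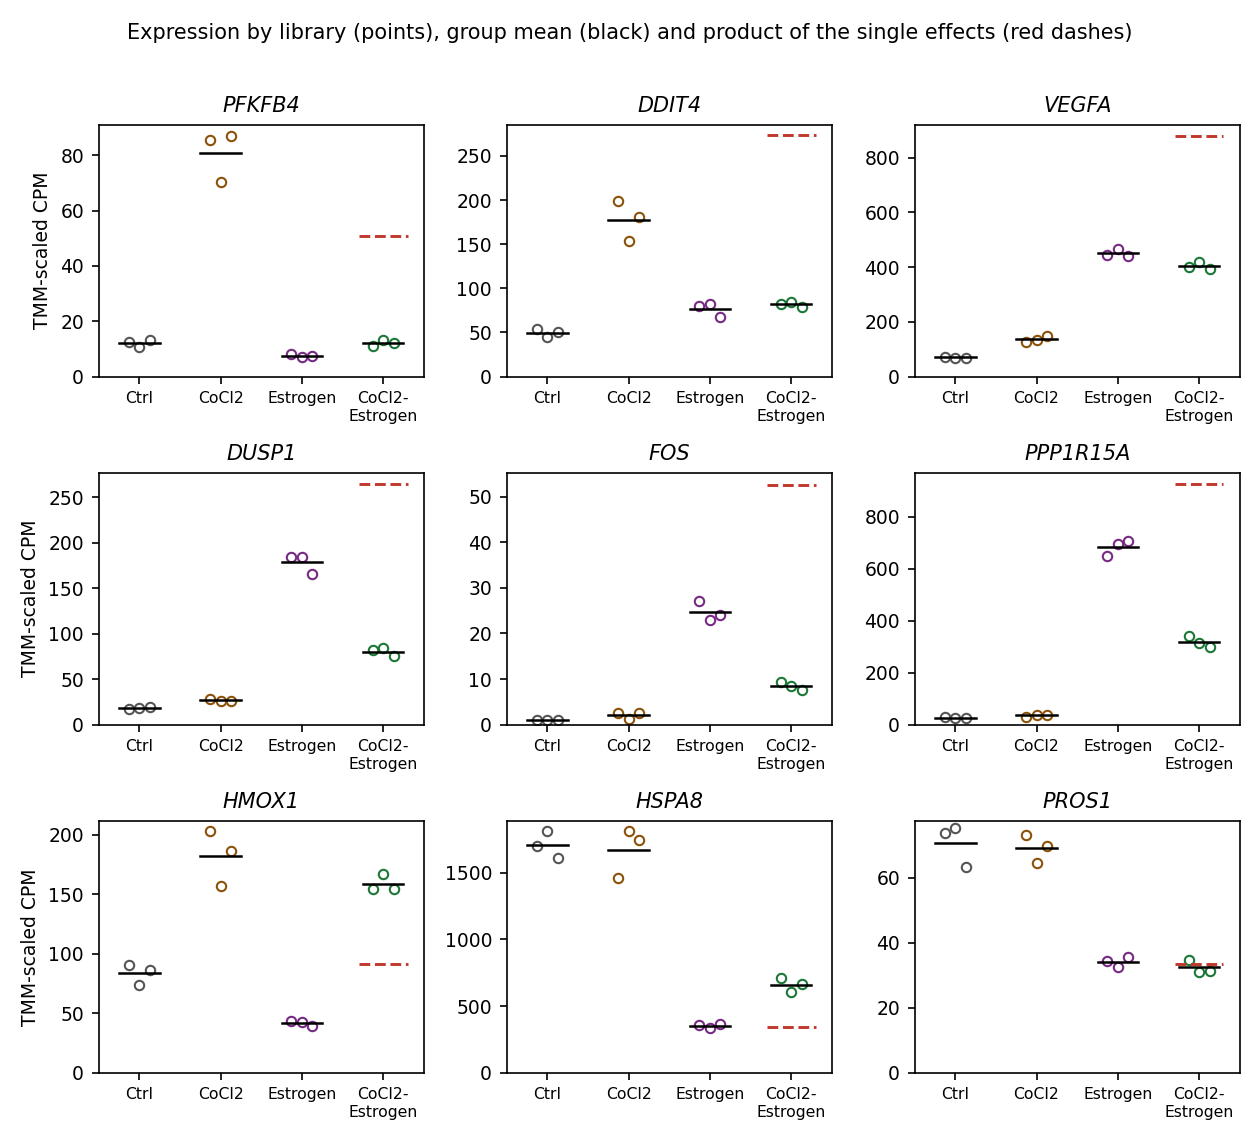
Each panel gives the CPM of 1 gene in the 12 libraries, 3 per group, from 0 upwards. Open points are libraries, black bars are group means and red dashes mark the product of the single effects. The CoCl2-Estrogen libraries lie below the dashes for PFKFB4, DDIT4, VEGFA, DUSP1, FOS and PPP1R15A, above them for HMOX1 and HSPA8, and around them for PROS1.

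Other HIF1 targets were still raised by CoCl2 in estradiol-treated cells, by a smaller factor. NDRG1, a stress-induced differentiation gene, rose by 1.52 (SE 0.0616) log2 without estradiol and by 0.85 (SE 0.0601) with it, and its interaction was -0.67 (SE 0.0851, adjusted p = 9.13e-05). BHLHE40, a transcriptional repressor of the circadian system, rose by 1.82 and 1.13, with an interaction of -0.69 (SE 0.0970, adjusted p = 2.60e-04). ADM, which encodes the vasodilator adrenomedullin, rose by 1.68 and 0.78, with an interaction of -0.89 (SE 0.139, adjusted p = 6.99e-04). In KDM3A, a histone H3 lysine 9 demethylase gene, the rises were 1.27 and 0.83 and the interaction was -0.44 (SE 0.0854, adjusted p = 0.00412). These transcripts were lower than the product of the single effects and higher than with estradiol alone. For EGLN3, a hydroxylase that marks HIF1α for degradation, the CoCl2 effect was 2.05 (SE 0.153) without and 2.30 (SE 0.158) with estradiol. Its interaction of 0.25 did not pass the test (adjusted p = 0.63). ANKRD37 and PDK1, further CoCl2-responsive targets, had interactions of 0.10 and 0.27, neither of which passed (adjusted p = 0.941 and 0.234). The HIF1 targets thus ranged from -3.46 for PPFIA4 to 0.94 for MIR210HG. PPFIA4 averaged under 3 CPM in every group, and MIR210HG was not called (adjusted p = 0.185).

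LDHA, the lactate dehydrogenase subunit of glycolytic tissue, was the 1 HIF1 target with a called positive term. It averaged 1304 CPM in Ctrl, 1777 in CoCl2, 439 in Estrogen and 788 in CoCl2-Estrogen cells, and its interaction was 0.40 (SE 0.107, adjusted p = 0.034). When each library was left out in turn, LDHA did not pass in 7 of 12 fits, with an adjusted p of up to 0.116. The estradiol groups were both lower than Ctrl, and the rise with CoCl2 was 0.45 without and 0.84 with estradiol. Among 32 glycolysis genes, PFKFB4, PFKFB3 and HK2 were called negative and LDHA positive, which is 12.5% beside 5.80% of all genes. The list median was -0.030. GAPDH, often used as a reference transcript, had an interaction of -0.045 (SE 0.103, adjusted p = 0.885) with a 95% interval of -0.26 to 0.17. With library totals alone its sign was positive, so no direction is given for it.

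**Figure D3:**
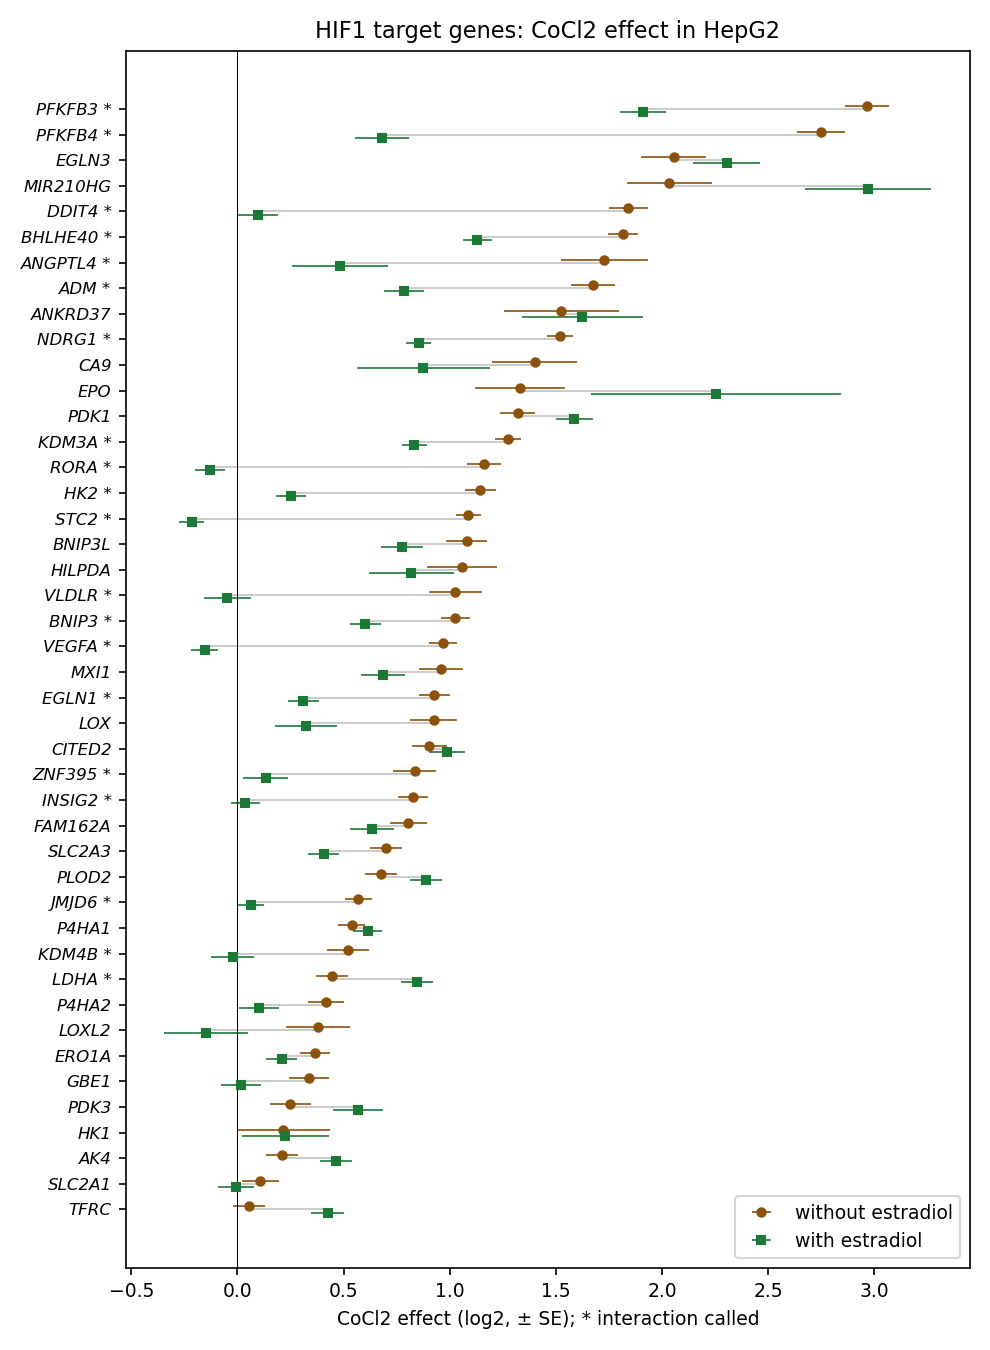
The CoCl2 effect (log2, ± SE, 3 libraries per group) is plotted for the 44 HIF1 target genes whose mean reached 1 CPM, ordered by the effect without estradiol. Circles are cells without estradiol, squares are cells with it, and asterisks mark called interactions. Squares lie to the left of the circles for every gene with an asterisk except LDHA.

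HIF1A transcript measured 382, 431 and 345 CPM in the Ctrl libraries, 353, 418 and 415 in the CoCl2 libraries, 298, 279 and 307 in the Estrogen libraries and 289.8, 268 and 299 in the CoCl2-Estrogen libraries. The CoCl2 libraries overlapped those of Ctrl, and both estradiol groups were lower. The interaction of HIF1A was -0.082 (SE 0.120, adjusted p = 0.798), with a 95% interval of -0.33 to 0.17. CoCl2 acts on HIF1α protein, which the libraries do not measure. Of 11 genes for HIF subunits and oxygen sensors, EGLN1, the main prolyl hydroxylase and itself a HIF1 target, was the 1 called, which is 9.09% beside 5.80% of all genes. It averaged 106 CPM in Ctrl, 202 in CoCl2, 132 in Estrogen and 164 in CoCl2-Estrogen cells, with an interaction of -0.62 (SE 0.105, adjusted p = 0.00137). For the other subunit and sensor genes, EPAS1 had an interaction of -0.064, ARNT -0.16 and VHL -0.019, with adjusted p = 0.799, 0.558 and 0.962.

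Demethylases of the 2-oxoglutarate-dependent family need iron and oxygen, as the EGLN proteins do, and the gene list also holds the flavin-dependent KDM1A. Of 22 histone and nucleic acid demethylase genes, 10 were called negative and 1 positive, which is 50% beside 5.80% of all genes. The list median was -0.27. KDM6B, an H3 lysine 27 demethylase gene, measured 58.2, 63.8 and 64.9 CPM in the Ctrl libraries, 71.5, 74.5 and 69.5 in the CoCl2 libraries, 240.1, 256 and 249 in the Estrogen libraries and 162, 154 and 149 in the CoCl2-Estrogen libraries. Estradiol raised it in both states, and the CoCl2-Estrogen libraries lay below the Estrogen libraries. Its interaction was -0.88 (SE 0.0850, adjusted p = 4.56e-06). KDM5B, an H3 lysine 4 demethylase gene, had an interaction of -0.83 (SE 0.0891, adjusted p = 1.41e-05), and KDM6A, the X-linked relative of KDM6B, had -0.66 (SE 0.0911, adjusted p = 2.12e-04). TET2, which oxidizes methylcytosine, averaged 30.4 CPM in Ctrl, 42.2 in CoCl2, 65.5 in Estrogen and 48.4 in CoCl2-Estrogen cells, with an interaction of -0.90 (SE 0.125, adjusted p = 2.12e-04). The positive member was KDM1A, at 0.49 (SE 0.0826, adjusted p = 0.00136).

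Immediate early genes, which growth factors and stress switch on within minutes to hours, had the lowest median of the lists. Of 33 tested, 20 (60.6%) were called negative and none positive, beside 5.80% of all genes called. The median interaction was -0.86. The median estradiol effect on the list was 2.51 without CoCl2 and 1.93 with it. CoCl2 alone raised 7 of the 33 and lowered 1 in cells without estradiol, beside 305 and 54 of all 16681 tested genes.

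DUSP1, a phosphatase gene that shuts off MAP kinases, had the smallest adjusted p of all genes. It measured 16.9, 18.2 and 19.1 CPM in the Ctrl libraries, 27.7, 26.5 and 26.0 in the CoCl2 libraries, 184, 185 and 166 in the Estrogen libraries and 81.6, 83.8 and 75.3 in the CoCl2-Estrogen libraries. The level rose with either agent alone, and the CoCl2-Estrogen libraries lay between the CoCl2 and the Estrogen libraries without overlap. The predicted level was 264 CPM, and the measured mean was 80.3 ± 4.42 (SD, n = 3) CPM. The interaction was -1.72 (SE 0.0990, adjusted p = 4.02e-08). FOS, a subunit of the AP-1 transcription factor, measured 0.941, 1.11 and 0.921 CPM in the Ctrl libraries, 2.47, 1.25 and 2.61 in the CoCl2 libraries, 27.1, 23.0 and 24.1 in the Estrogen libraries and 9.25, 8.48 and 7.63 in the CoCl2-Estrogen libraries, with an interaction of -2.68 (SE 0.284, adjusted p = 1.30e-05). FOS was near 1 CPM in control cells, so its single CoCl2 effect rests on few counts. EGR1, a zinc finger factor of the early growth response, averaged 23.3 CPM in Ctrl, 23.9 in CoCl2, 369.6 in Estrogen and 146 in CoCl2-Estrogen cells, with an interaction of -1.37 (SE 0.128, adjusted p = 3.30e-06). JUN, the other AP-1 subunit, averaged 84.3 CPM in Ctrl, 107 in CoCl2, 269 in Estrogen and 181 in CoCl2-Estrogen cells, with -0.93 (SE 0.0963, adjusted p = 1.03e-05). BTG1, an antiproliferative gene, measured 18.6, 19.9 and 19.9 CPM in the Ctrl libraries, 28.6, 27.9 and 26.4 in the CoCl2 libraries, 203, 200.3 and 183 in the Estrogen libraries and 129.6, 129 and 133 in the CoCl2-Estrogen libraries, with -1.09 (SE 0.0879, adjusted p = 9.84e-07). In each of these genes the CoCl2-Estrogen level was above Ctrl and below Estrogen.

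Genes of the integrated stress response, in which ATF4 is translated when eIF2α is phosphorylated, were called negative for 14 of 34 and positive for none. That is 41.2% beside 5.80% of all genes, and the list median was -0.28. PPP1R15A encodes the subunit that directs dephosphorylation of eIF2α. It measured 28.2, 25.1 and 25.4 CPM in the Ctrl libraries, 31.2, 36.4 and 38.7 in the CoCl2 libraries, 651, 697 and 708 in the Estrogen libraries and 342, 314 and 299 in the CoCl2-Estrogen libraries. Estradiol raised it in both states, and the rise was smaller with CoCl2, by 3.17 against 4.71 log2. Its interaction was -1.54 (SE 0.116, adjusted p = 4.35e-07). DDIT3, which encodes the pro-apoptotic factor CHOP, averaged 5.25 CPM in Ctrl, 5.22 in CoCl2, 72.4 in Estrogen and 21.8 in CoCl2-Estrogen cells, with -1.72 (SE 0.170, adjusted p = 6.09e-06). ASNS and PSAT1, list members of asparagine and serine synthesis, had interactions of 0.064 and 0.032, which did not pass (adjusted p = 0.833 and 0.916). ERN1, the endoplasmic reticulum stress sensor IRE1α, measured 16.9, 18.7 and 18.4 CPM in the Ctrl libraries, 19.0, 19.9 and 19.7 in the CoCl2 libraries, 430.2, 433 and 416 in the Estrogen libraries and 201, 211 and 213 in the CoCl2-Estrogen libraries, with an interaction of -1.15 (SE 0.0865, adjusted p = 4.35e-07).

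Target genes of p53 were called negative for 17 of 30 and positive for none, which is 56.7% beside 5.80% of all genes. The median was -0.48, and the median estradiol effect on the list was 0.90 without CoCl2 and 0.39 with it. CDKN1A, the cell cycle inhibitor p21, measured 109, 106 and 119.8 CPM in the Ctrl libraries, 140.0, 122 and 129 in the CoCl2 libraries, 632, 635 and 577 in the Estrogen libraries and 368, 357 and 320.2 in the CoCl2-Estrogen libraries. The 3 CoCl2-Estrogen libraries lay above the Ctrl and CoCl2 libraries and below those with estradiol alone. Its interaction was -1.04 (SE 0.106, adjusted p = 8.08e-06). MDM2, which ubiquitinates p53, averaged 615 CPM in Ctrl, 712 in CoCl2, 1027 in Estrogen and 600.2 in CoCl2-Estrogen cells, with -0.99 (SE 0.102, adjusted p = 9.87e-06). BBC3, the pro-apoptotic factor PUMA, averaged 12.8 CPM in Ctrl, 16.6 in CoCl2, 88.8 in Estrogen and 34.5 in CoCl2-Estrogen cells, with -1.75 (SE 0.228, adjusted p = 1.14e-04). BTG2, an antiproliferative gene, measured 38.05, 42.8 and 39.1 CPM in the Ctrl libraries, 39.99, 42.1 and 50.6 in the CoCl2 libraries, 56.4, 57.2 and 53.3 in the Estrogen libraries and 23.4, 23.8 and 23.4 in the CoCl2-Estrogen libraries, so that with both agents it lay below the control range, with an interaction of -1.39 (SE 0.129, adjusted p = 3.30e-06). GDF15, a stress cytokine gene of the ATF4 and p53 lists, averaged 149 CPM in Ctrl, 190.2 in CoCl2, 3359 in Estrogen and 2258 in CoCl2-Estrogen cells, with -0.93 (SE 0.106, adjusted p = 2.59e-05). PPM1D, the phosphatase that turns p53 signalling down, had -1.04 (SE 0.0949, adjusted p = 2.53e-06). Over the HIF1, immediate early, ATF4 and p53 lists together, 65 of 138 distinct genes were called, 64 negative and 1 positive, beside 967 of all 16681.

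**Figure D4:**
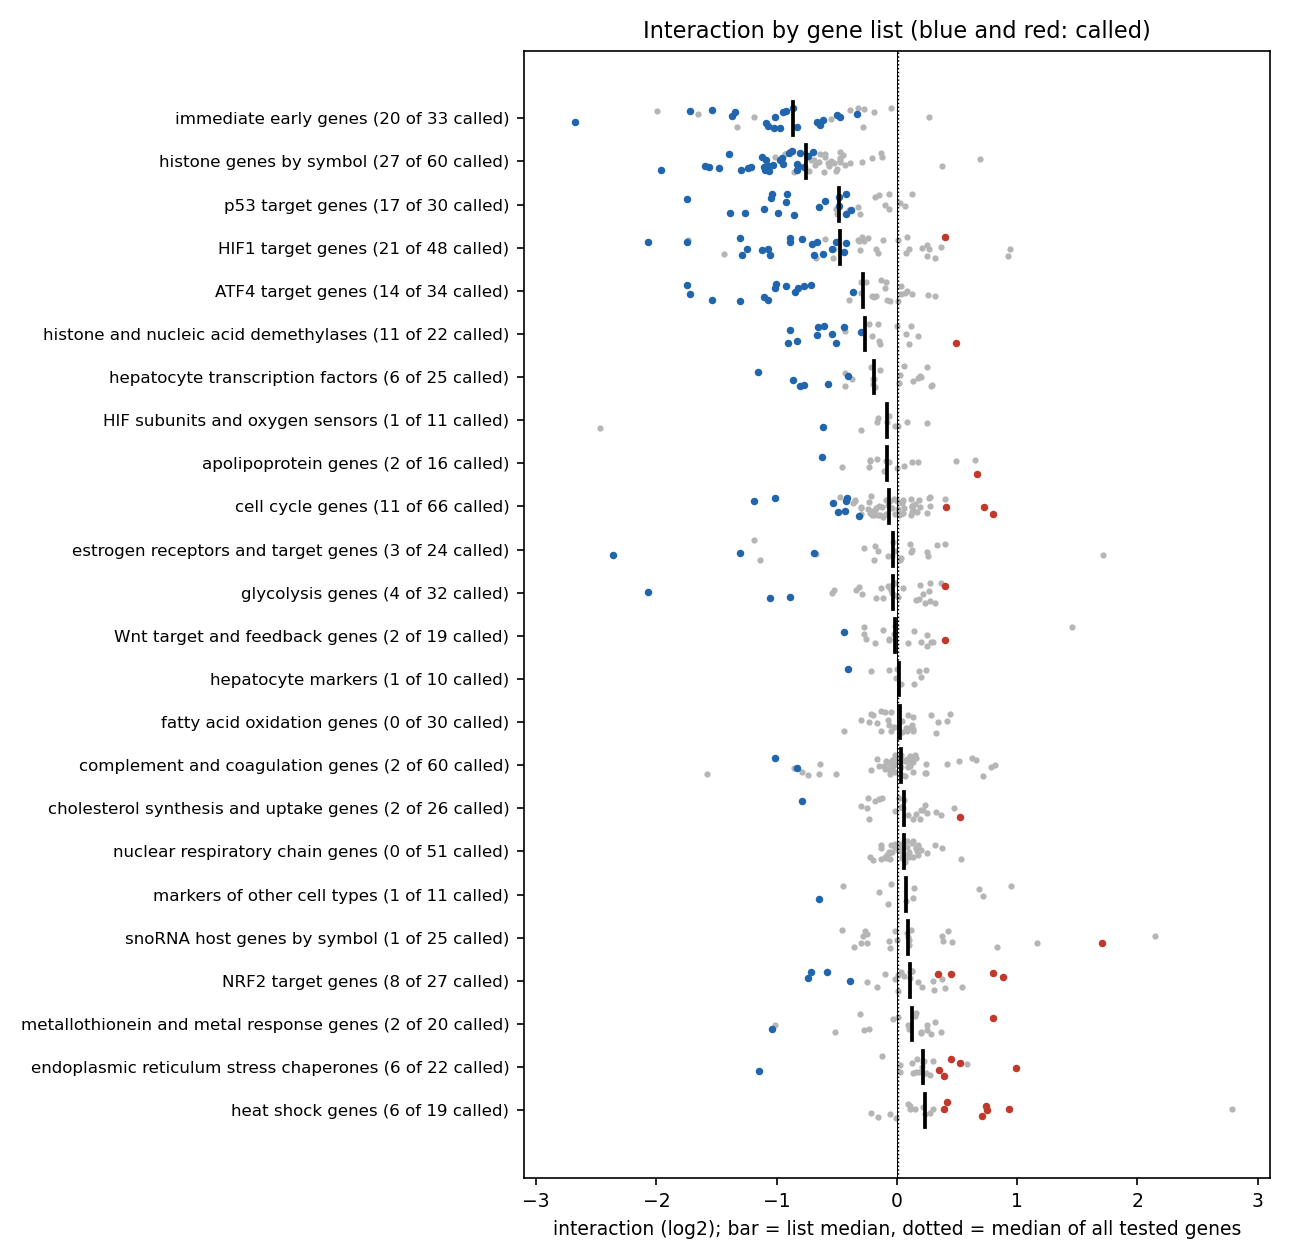
Each point is the interaction (log2) of 1 list member, grey where not called, blue or red where called negative or positive. Black bars are list medians, the dotted line is the median of all tested genes, and 2 members lie outside the axis. Immediate early, histone, HIF1, p53, ATF4 and demethylase genes have medians below -0.2, and the chaperone and heat shock lists have medians above 0.2.

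Positive interactions were found among molecular chaperones. Of 19 heat shock genes, 6 were called, all positive, which is 31.6% beside 5.80% of all genes. The list median was 0.23. HSPA8, the constitutive cytosolic HSP70, measured 1697, 1815 and 1614 CPM in the Ctrl libraries, 1457, 1810.0 and 1742 in the CoCl2 libraries, 360.2, 335 and 366 in the Estrogen libraries and 709, 603 and 667 in the CoCl2-Estrogen libraries. Estradiol lowered it in both states, CoCl2 without estradiol left the groups overlapping, and with estradiol the CoCl2 libraries were higher without overlap. The predicted level was 346 CPM, and the measured mean was 659.7 ± 53.4 (SD, n = 3) CPM. The interaction was 0.93 (SE 0.120, adjusted p = 9.38e-05). HSPA1A and HSPA1B, the inducible HSP70 genes, had interactions of 0.75 (SE 0.140, adjusted p = 0.00319) and 0.74 (SE 0.113, adjusted p = 5.57e-04). The coding sequences of the pair are almost identical, so reads may be split between them and their values are not independent. DNAJB1 and BAG3, partners of HSP70, had interactions of -0.16 and -0.21, which did not pass (adjusted p = 0.435 and 0.26).

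In the endoplasmic reticulum list 5 of 22 genes were called positive and 1, the sensor ERN1, negative, with a median of 0.22. The called share was 27.3%, beside 5.80% of all genes. SDF2L1, an HSP40 partner in the lumen, measured 20.1, 19.9 and 21.9 CPM in the Ctrl libraries, 20.7, 16.9 and 17.5 in the CoCl2 libraries, 5.46, 6.27 and 5.32 in the Estrogen libraries and 9.38, 9.94 and 10.9 in the CoCl2-Estrogen libraries, with an interaction of 0.99 (SE 0.160, adjusted p = 9.31e-04). PDIA4, a protein disulfide isomerase, measured 498, 490.2 and 477 CPM in the Ctrl libraries, 457, 425 and 492 in the CoCl2 libraries, 108, 112 and 106 in the Estrogen libraries and 150.1, 146 and 143 in the CoCl2-Estrogen libraries, with 0.53 (SE 0.0894, adjusted p = 0.00137). HSPA5, the lumenal HSP70 also called BiP, averaged 1167 CPM in Ctrl, 1129 in CoCl2, 604 in Estrogen and 766 in CoCl2-Estrogen cells, with 0.39 (SE 0.0852, adjusted p = 0.00922). For these chaperones estradiol alone gave the lowest level, and the addition of CoCl2 brought it part of the way to that of control cells.

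HMOX1, heme oxygenase 1, is a target of NRF2 and of heme and metal stress. It measured 90.3, 73.9 and 86.0 CPM in the Ctrl libraries, 203, 157 and 187 in the CoCl2 libraries, 43.4, 42.3 and 39.1 in the Estrogen libraries and 154, 167 and 154 in the CoCl2-Estrogen libraries. CoCl2 raised it by 1.13 (SE 0.0879) log2 without and by 1.93 (SE 0.0927) with estradiol, and estradiol lowered it without CoCl2. The interaction was 0.80 (SE 0.126, adjusted p = 7.72e-04), and the level with both agents was 174% of the product. Of 27 NRF2 targets, HMOX1 included, 4 were called positive and 4 negative, which is 29.6% beside 5.80% of all genes. CBR1, a carbonyl reductase gene, had 0.88 (SE 0.139, adjusted p = 7.21e-04), whereas SLC7A11, the cystine transporter gene, had -0.71 (SE 0.0999, adjusted p = 2.40e-04). NQO1, a reference NRF2 target, had 0.060 (adjusted p = 0.812). Of 20 metallothionein and metal response genes, HMOX1 was called positive and SLC30A10, a manganese exporter gene, negative, at -1.04 (SE 0.186, adjusted p = 0.00219). The called share of that list was 10%, beside 5.80% of all genes.

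Protein S transcript showed the estradiol effect and no called interaction. PROS1 measured 73.9, 75.3 and 63.3 CPM in the Ctrl libraries, 73.1, 64.6 and 69.9 in the CoCl2 libraries, 34.4, 32.6 and 35.6 in the Estrogen libraries and 34.7, 31.1 and 31.5 in the CoCl2-Estrogen libraries. The 6 estradiol libraries lay below the 6 others, and the CoCl2 groups overlapped their partners in both states. Estradiol lowered PROS1 in both states, with an effect of -1.05 (SE 0.0836) log2 without CoCl2 and -1.10 (SE 0.0841) with it. The CoCl2 effect was -0.033 (SE 0.0805) without estradiol and -0.076 (SE 0.0862) with it, with adjusted p = 0.909 and 0.649. The interaction was -0.043 (SE 0.118, adjusted p = 0.908), with a 95% interval of -0.29 to 0.21. The level with both agents, 32.4 ± 1.95 (SD, n = 3) CPM, was 97.1% of the product of the single effects.

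Of 60 complement and coagulation genes, 2 were called, both negative, which is 3.33% beside 5.80% of all genes. The median was 0.033. Both were genes of fibrinolysis, PLAU and PLAUR. PLAU, the urokinase-type plasminogen activator, measured 6.74, 5.25 and 6.73 CPM in the Ctrl libraries, 6.27, 4.69 and 5.36 in the CoCl2 libraries, 9.46, 8.69 and 7.33 in the Estrogen libraries and 3.59, 3.60 and 3.92 in the CoCl2-Estrogen libraries, with an interaction of -1.01 (SE 0.227, adjusted p = 0.0111). PLAUR, its receptor, had -0.83 (SE 0.240, adjusted p = 0.05), and it did not pass in 9 of the 12 fits with a library left out, with an adjusted p of up to 0.16. For the clotting factors F2, F7 and F10 the interactions were 0.043, -0.50 and -0.034, with adjusted p = 0.874, 0.183 and 0.944. The fibrinogen genes FGA, FGB and FGG had -0.039, -0.0076 and 0.036, and none of the 3 passed the test (adjusted p = 0.898, 0.988 and 0.906).

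The ESR1 transcript was low. ESR1 measured 0.105, 0.184 and 0.288 CPM in the Ctrl libraries, 0.482, 0.513 and 0.504 in the CoCl2 libraries, 3.01, 3.49 and 5.11 in the Estrogen libraries and 1.93, 2.32 and 1.51 in the CoCl2-Estrogen libraries, from at most 74 counts in a library. The Estrogen libraries were highest and the CoCl2-Estrogen libraries lower, with an interaction of -2.36 (SE 0.550, adjusted p = 0.0149). In Ctrl cells the gene rested on 2 to 5 counts a library, which limits the precision of its single effects. Without Ctrl replicate A the adjusted p was 0.0541. It was 0.0942 with libraries thinned to the smallest total, a setting added after seeing the data. Of 24 estrogen receptor and target genes, ESR1, STC2 and AREG were called, all negative, which is 12.5% beside 5.80% of all genes. AREG, an epidermal growth factor family ligand gene, measured 75.5, 62.0 and 73.5 CPM in the Ctrl libraries, 69.8, 95.3 and 86.7 in the CoCl2 libraries, 519, 509 and 534 in the Estrogen libraries and 416, 373 and 366 in the CoCl2-Estrogen libraries, with -0.69 (SE 0.137, adjusted p = 0.00466). GREB1 and TFF1, classical targets of ESR1 in breast cells, had 0.12 and -1.14 (adjusted p = 0.568 and 0.629). GPER1, the membrane receptor gene, had 0.40 (adjusted p = 0.139).

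Hepatocyte transcription factors were called negative for 6 of 25 and positive for none, which is 24% beside 5.80% of all genes. FOXA3 measured 28.4, 29.9 and 31.4 CPM in the Ctrl libraries, 34.04, 29.3 and 28.3 in the CoCl2 libraries, 68.9, 73.6 and 61.6 in the Estrogen libraries and 34.9, 29.7 and 28.9 in the CoCl2-Estrogen libraries. Estradiol raised it without CoCl2, and the CoCl2-Estrogen libraries lay close to those of Ctrl cells. Its interaction was -1.16 (SE 0.141, adjusted p = 5.09e-05). FOXA2 had -0.58 (SE 0.0915, adjusted p = 8.16e-04), NR1D1, a circadian repressor, had -0.80 (SE 0.162, adjusted p = 0.00547), and HNF4A, the master regulator of hepatocyte genes, had -0.41 (SE 0.0962, adjusted p = 0.0166). Without Estrogen replicate B the adjusted p of HNF4A was 0.0573. HNF4A was also the 1 member called among 10 hepatocyte markers, which is 10% beside 5.80% of all genes. ALB, which encodes albumin, had 0.24 (adjusted p = 0.194). SOX9, a bile duct and progenitor factor, was the 1 called among 11 tested markers of other cell types, at -0.65 (SE 0.0893, adjusted p = 2.12e-04). That is 9.09% of the markers tested.

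None of 51 nuclear genes of the respiratory chain and none of 30 fatty acid oxidation genes were called in edgeR as fitted here, beside 5.80% of all genes, and the smallest adjusted p of each belonged to UQCRFS1, at 0.32 (SE 0.146, adjusted p = 0.251), and ACAA1, at 0.42 (SE 0.121, adjusted p = 0.0517). At an unadjusted p under 0.05 the lists held 1 and 2 genes. ACAA1 passed in DESeq2 (adjusted p = 0.0256), in edgeR with upper-quartile scaling, library totals alone or filterByExpr (adjusted p = 0.0411, 0.0290 and 0.0433), without Estrogen replicate B (adjusted p = 0.0401) and in both settings added after seeing the data (adjusted p = 0.0484 and 0.0279). Of 26 cholesterol genes, INSIG2 was called negative and DHCR7 positive, which is 7.69% of the list. INSIG2, a brake on sterol synthesis and a HIF1 target, had -0.79 (SE 0.0977, adjusted p = 6.18e-05), and DHCR7, the last enzyme of cholesterol synthesis, had 0.52 (SE 0.132, adjusted p = 0.0242). DHCR7 did not pass in 7 of the 12 fits with a library left out (adjusted p up to 0.0717). Of 16 apolipoprotein and related genes, APOL1 was called positive at 0.66 (SE 0.117, adjusted p = 0.00193) and LCAT negative at -0.62 (SE 0.169, adjusted p = 0.0372), the latter not passing in 8 of those 12 fits (adjusted p up to 0.0882). The called share of that list was 12.5%. Of 19 Wnt target genes, SP5 was called negative at -0.44 (SE 0.110, adjusted p = 0.0226) and BAMBI positive at 0.40 (SE 0.113, adjusted p = 0.043), which is 10.5% of the list. SP5 did not pass without Ctrl replicate A, CoCl2 replicate C or Estrogen replicate B (adjusted p up to 0.0692), and BAMBI did not in 11 of the 12 fits (adjusted p up to 0.116).

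Of 66 cell cycle genes, 8 were called negative and 3 positive, which is 16.7% beside 5.80% of all genes. Their median was -0.069. E2F7 and E2F8 are the repressor members of the E2F family. E2F7 measured 26.7, 25.3 and 25.8 CPM in the Ctrl libraries, 33.6, 34.5 and 35.7 in the CoCl2 libraries, 30.5, 32.2 and 31.7 in the Estrogen libraries and 20.2, 15.9 and 19.5 in the CoCl2-Estrogen libraries. E2F8 averaged 21.4 CPM in Ctrl, 20.9 in CoCl2, 13.6 in Estrogen and 6.51 in CoCl2-Estrogen cells. Both fell with CoCl2 in estradiol-treated cells, with interactions of -1.18 (SE 0.133, adjusted p = 2.33e-05) and -1.02 (SE 0.164, adjusted p = 9.37e-04). SKP2, which targets the inhibitor p27 for degradation, rose with CoCl2 in estradiol-treated cells from a level well below that of Ctrl, with 0.80 (SE 0.127, adjusted p = 8.17e-04). The cyclins CCNB1 and CCNA2 had -0.094 and -0.061 (adjusted p = 0.68 and 0.858).

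Histone genes, collected by their symbols after their values had been seen, were called negative for 27 of 60 and positive for none. That is 45% beside 5.80% of all genes, and the list median was -0.75. The replication-dependent histone transcripts lack a poly(A) tail, and the libraries were made from total RNA after ribosomal RNA removal, which retains them. Their CoCl2 effect had a median of 0.0060 without estradiol and -0.70 with it. H3C4, a histone H3 gene, measured 155, 166 and 175 CPM in the Ctrl libraries, 167, 176 and 152 in the CoCl2 libraries, 77.2, 73.0 and 76.0 in the Estrogen libraries and 40.2, 34.2 and 31.2 in the CoCl2-Estrogen libraries. CoCl2 alone left the group near control, estradiol lowered it, and both agents gave the lowest libraries, with -1.10 (SE 0.114, adjusted p = 1.03e-05). H1-2, a linker histone gene, averaged 381 CPM in Ctrl, 359 in CoCl2, 345 in Estrogen and 184 in CoCl2-Estrogen cells, with -0.82 (SE 0.159, adjusted p = 0.00398), and H2AC16, a histone H2A gene, had -1.96 (SE 0.384, adjusted p = 0.00431). The histone genes are near-identical copies in clusters, so reads may be shared among them and the 27 calls are not independent.

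Outside the lists, IL11 and CYP1A1 had adjusted p among the 6 smallest. IL11, an interleukin 6 family cytokine gene, measured 35.8, 31.9 and 33.4 CPM in the Ctrl libraries, 42.1, 41.2 and 39.5 in the CoCl2 libraries, 585, 573 and 546 in the Estrogen libraries and 263, 249.6 and 239.7 in the CoCl2-Estrogen libraries. Estradiol raised it in both states, and with CoCl2 its level was lower than with estradiol alone, with an interaction of -1.46 (SE 0.0913, adjusted p = 7.59e-08). CYP1A1, the classical target of the aryl hydrocarbon receptor, which shares the partner ARNT with HIF1α, measured 38.5, 36.8 and 33.8 CPM in the Ctrl libraries, 97.3, 80.4 and 82.8 in the CoCl2 libraries, 1026, 1061 and 961 in the Estrogen libraries and 848, 880.0 and 788 in the CoCl2-Estrogen libraries. Each agent alone raised it, and the measured level with both was 34.6% of the product, with -1.53 (SE 0.113, adjusted p = 4.35e-07). SNHG4, a small nucleolar RNA host gene, had the opposite pattern. It measured 10.5, 12.6 and 13.1 CPM in the Ctrl libraries, 6.97, 6.38 and 6.87 in the CoCl2 libraries, 5.62, 5.63 and 4.70 in the Estrogen libraries and 10.3, 10.1 and 8.93 in the CoCl2-Estrogen libraries. Both agents alone lowered it, and with both it lay close to control, with 1.71 (SE 0.181, adjusted p = 1.27e-05). The 25 small nucleolar RNA host genes were, like the histone genes, collected by their symbols after results had been seen. None of them but SNHG4 was called, so the called share was 4% beside 5.80% of all genes.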

How the data were processed

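Total RNA of 12 HepG2 samples was depleted of ribosomal RNA and sequenced. The table deposited by the authors holds estimated counts for each gene without scaling for depth, and 23.8% of its values are not whole. Their processing notes name Partek, Bowtie2 2.2.5, STAR 2.7.8a and the builds hg38 and mm10. Which build served HepG2 is not given in the sources used here. Groups, doses and times were taken from the labels.

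Counts were rounded and fitted in R 4.3.3 with edgeR 4.0.16 (quasi-likelihood test, TMM scaling, all 12 libraries, CoCl2, estradiol and their product, no replicate block). Genes had to exceed 5 counts in 1 library or more, and p-values were Benjamini-Hochberg adjusted with a threshold of 0.05. Single effects were contrasts of this fit, and 95% intervals used its degrees of freedom. The study's own test was DESeq2. Alternatives were DESeq2 1.42.0, voom in limma 3.58.1, other scalings and filters, a replicate block and each library left out. The code of the fit was also run on counts simulated from the fitted model itself. Such a run cannot show whether the model suits these libraries.

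Genes, lists and tests were chosen with earlier results of these data known. 68 genes were named by a rule: PROS1, HIF1A, ESR1, GAPDH and HMOX1, the 10 largest called interactions each way at a mean of at least 1 CPM, the 6 smallest p, and per list up to 3 called members or, with none called, the 1 with the smallest p. A further 18, and the members not called that are given as values, were added after their values were seen. Some list members are not reported here and were left out of the list counts, though not of the fit. Libraries with the same replicate letter were not treated as pairs in the main fit. Estimates cover counting error and the spread of 3 libraries per group only.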

Additional observations from a re-analysis of the deposited data

Results flagged for a closer look

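The interaction is itself a test of whether the CoCl2 effect differs between cells without and with estradiol, and 967 genes differed by it. All of the values below are interactions on the log2 scale of genes that passed that test in edgeR.

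Among HIF1 target genes the values were -2.07 for PFKFB4, -1.75 for DDIT4, -1.30 for STC2, -1.29 for RORA, -1.12 for VEGFA and -1.05 for PFKFB3. They were -0.89 for HK2, -0.89 for ADM, -0.79 for INSIG2, -0.69 for BHLHE40, -0.67 for NDRG1, -0.62 for EGLN1, -0.44 for KDM3A and 0.40 for LDHA. All of these but LDHA were negative.

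Immediate early, stress and p53 genes were negative too, at -2.68 for FOS, -1.75 for BBC3, -1.72 for DUSP1, -1.72 for DDIT3, -1.54 for PPP1R15A, -1.39 for BTG2 and -1.37 for EGR1. They stood at -1.15 for ERN1, -1.09 for BTG1, -1.04 for PPM1D, -1.04 for CDKN1A, -0.99 for MDM2, -0.93 for JUN, -0.93 for GDF15 and -0.71 for SLC7A11. The secreted or membrane products IL11 (-1.46), PLAU (-1.01), PLAUR (-0.83), AREG (-0.69), SLC30A10 (-1.04) and LCAT (-0.62) had the same sign, as did the enzyme CYP1A1 (-1.53).

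Nuclear factors and chromatin genes gave -2.36 for ESR1, -1.18 for E2F7, -1.02 for E2F8, -1.16 for FOXA3, -0.80 for NR1D1, -0.58 for FOXA2, -0.65 for SOX9, -0.44 for SP5 and -0.41 for HNF4A. ESR1 rested on 2 to 5 counts a library in Ctrl cells. The demethylase genes gave -0.90 for TET2, -0.88 for KDM6B, -0.83 for KDM5B, -0.66 for KDM6A and 0.49 for KDM1A. The histone genes gave -1.96 for H2AC16, -1.10 for H3C4 and -0.82 for H1-2.

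Positive values belonged to the chaperone genes SDF2L1 (0.99), HSPA8 (0.93), HSPA1A (0.75), HSPA1B (0.74), PDIA4 (0.53) and HSPA5 (0.39). Others were CBR1 (0.88), SKP2 (0.80), HMOX1 (0.80), APOL1 (0.66), DHCR7 (0.52), BAMBI (0.40), SNHG4 (1.71) and GVQW3 (1.57).

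The remaining extremes were low in at least 1 group. Negative values were -4.13 for KLRK1, -2.79 for MEF2B, -2.63 for IL12RB2, -2.39 for FOXD1, -2.04 for CRB2 and -1.93 for TINCR. Positive values were 5.59 for RNF103-CHMP3, 4.31 for CAPN8, 2.27 for ENPP7, 2.08 for LOC100652758, 2.06 for ETNPPL, 1.89 for SNORD3C, 1.66 for GPR162 and 1.57 for UFSP1. Of these 14 genes, KLRK1 alone passed in each of the 12 fits with a library left out. RNF103-CHMP3 did not pass without CoCl2 replicate C, and MEF2B without CoCl2 replicate C or Estrogen replicate C. The other 11 failed in 4 to 11 of the 12 fits, TINCR with an adjusted p of up to 0.235.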

How the results depend on the processing

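The count of 967 called genes was 1286 in DESeq2, 950 in limma-voom, 1030 with median-ratio, 1029 with upper-quartile and 1008 with library-total scaling, 1135 with no filter on low counts and 1153 with filterByExpr. It ranged from 678 to 1044 when 1 library was left out, the negative calls from 457 to 704 and the positive calls from 221 to 341. HIF1 targets called ranged from 17 to 22 over those fits and from 20 to 23 over the other settings. The PROS1 interaction turned to 0.0098 (adjusted p = 0.987) with library totals alone and to 0.031 (adjusted p = 0.939) without Ctrl replicate C, and it ranged from -0.118 to 0.031 over the fits that left out 1 library. GAPDH turned to 0.0096 with library totals alone.

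Same-letter deviations correlated from -0.309 to 0.288, over 0.1 in 5 of 18 pairs, against 12 of 36 pairs of different letters. Deviations from a group mean are tied to each other within the group, so these correlations cannot exclude pairing by letter. The closing numbers of the sample titles run through all groups of letter A, then B, then C. With a replicate block 771 genes were called, 264 positive and 507 negative, 756 of them among the 967. The HIF1 targets called were then 20, and the PROS1 interaction was -0.043. Of the named genes, LDHA (adjusted p = 0.0508), BAMBI (0.0628), LCAT (0.0729), PLAUR (0.0755), CAPN8 (0.0729), FOXD1 (0.0503), IL12RB2 (0.0672), LOC100652758 (0.0589) and TINCR (0.0615) were not called in that fit.

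After seeing the data, 2 settings were added. With ribosomal RNA, 7S RNA and globin genes left out 1124 genes were called, and with libraries thinned to the smallest total 899. Of 85 named genes other than PROS1, 62 kept their sign and their side of the threshold in every setting and 23 did not, and the cause was not tested.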

Other observations

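Several of the largest fitted interactions belonged to genes with few counts. CAPN8, a calpain protease gene, had no count in the 3 CoCl2 libraries, where 3 counts would be 0.137 to 0.220 CPM, and at most 5 counts in a Ctrl library, whereas it measured 7.69 CPM in Estrogen and 7.73 CPM in CoCl2-Estrogen cells. KLRK1, IL12RB2, FOXD1 and TINCR had at most 3 counts in each Ctrl library. Their fitted interactions depend on the prior count and are not bounds. RNF103-CHMP3 is a readthrough transcript and shares sequence with its component genes, as KLRK1 and MEF2B do with readthrough transcripts that join them to neighbours, so their values are uncertain. SNORD3C is 1 of several near-identical copies.

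On the linear CPM scale the double difference, CoCl2-Estrogen minus Estrogen minus CoCl2 plus Ctrl, had the other sign for 14 of the 967 called genes, and for 4 of these it exceeded 2 standard errors. Genes named above with the other sign were APOL1, at -18.0 CPM (SE 4.90), LDHA, at -124 (SE 83.1), and HSPA1A, at -22.0 (SE 46.8). So were ADM, at 3.68 (SE 2.06), BHLHE40, at 7.71 (SE 8.25), and KDM3A, at 1.15 (SE 9.86). Of these named genes, APOL1 alone exceeded 2 standard errors, so the sign of its term depends on the scale. For the others the double difference lay within 2 standard errors, so its sign on the linear scale is not settled.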
